A study of Sus scrofa with 10 samples.

Results

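Aortic valve leaflets of juvenile Rapacz Familial Hypercholesterolemic (RFH) swine were compared with leaflets of juvenile wild-type (WT) swine. The comparison rests on 6 of the 10 arrays of the series, 3 titled juvenile RFH and 3 titled juvenile WT, and they are called RFH 1 to 3 and WT 1 to 3 by the numbers in their titles. The other 4 arrays, from adult RFH swine, took no part in the fit and are given only as values. Total RNA of each leaflet sample was read on Affymetrix GeneChip Porcine Genome arrays, where a transcript is read by a group of short probes called a probe set.

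All 6 juveniles were females aged 3 months on a standard chow diet, and the adults were females aged 2 years on the same diet. The WT animals are labelled as Rapacz Wisconsin Miniature Swine with the genotype wild type (RFH -/-). The RFH animals are labelled by breed alone, with no genotype, so breed and genotype cannot be told apart here. Whether the arrays of a group stand for different animals is not said in the labels. The p-values therefore measure the spread between arrays as labelled, which may be technical.

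RFH swine inherit high blood cholesterol and develop arterial lesions without a high-fat diet. An aortic valve leaflet is a thin sheet of collagen, proteoglycan and elastin. It is populated by interstitial cells, covered by endothelium and patrolled by resident macrophages. Retained lipoproteins, macrophages and endothelial adhesion molecules are known from early valve and arterial lesions, and osteopontin and other mineral-binding proteins from later calcification.

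The leaflet label was checked against marker genes. The 11 measured valve interstitial markers, such as vimentin (VIM) and decorin (DCN), averaged between 12.41 and 12.56 log2 units in each of the 6 arrays, where the array medians lay between 6.97 and 7.03. Endothelial markers averaged 8.64, 8.88 and 8.70 in RFH 1, 2 and 3 and 8.33, 8.53 and 8.62 in WT 1, 2 and 3. Macrophage markers averaged 9.23, 9.29 and 9.21 in the RFH arrays and 8.99, 8.87 and 8.98 in the WT arrays. Lymphocyte markers were low, with means between 5.19 and 5.44 and all 15 probe sets below the array median. The groups did not overlap in the endothelial, macrophage or lymphocyte means, nor in those of several other cell type lists.

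RFH 2 also carried heart muscle transcripts. The mean of 32 cardiac muscle markers was 7.83 in RFH 2, against 6.05 in RFH 1, 6.13 in RFH 3 and 5.90 to 5.92 in the WT arrays. Cardiac actin (ACTC1) measured 4.07, 10.89 and 5.91 in RFH 1, 2 and 3 and 4.13, 3.67 and 3.82 in WT 1, 2 and 3. The regulatory light chain MYL2 measured 4.64, 10.94 and 6.13 in the RFH arrays and 4.83, 5.26 and 4.96 in the WT arrays. Both genes stood far above all other arrays in RFH 2 and were also somewhat higher in RFH 3 than in any WT array. The slow myosin heavy chain MYH7, the troponins TNNT2, TNNI3 and TNNC1, titin (TTN) and the creatine kinases CKM and CKMT2 were likewise highest in RFH 2. None of the 32 cardiac markers passed the test in either direction, and the SE of ACTC1 was 1.47 around a difference of 3.08. In RFH 2, 56 probe sets lay at least 1 log2 unit above both other arrays of the group, against 14 in RFH 1, 18 in RFH 3 and 0 to 4 in the WT arrays.

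**Figure D1:**
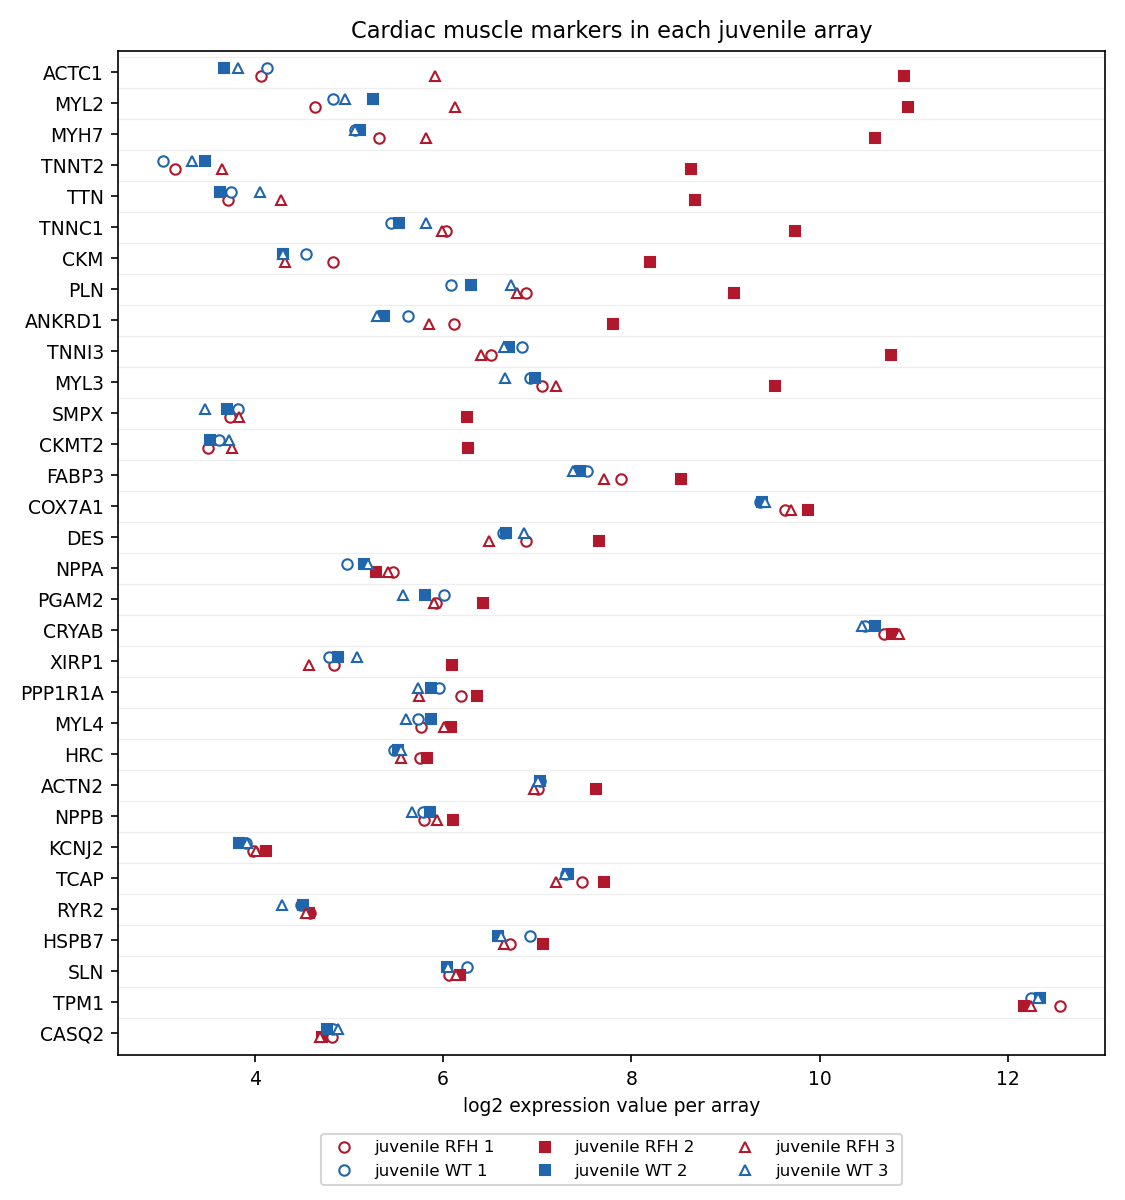
log2 expression value of 32 cardiac muscle markers in each juvenile array, 1 point per array, juvenile RFH in red and juvenile WT in blue, with filled squares for the arrays numbered 2. ACTC1 at 10.89 and MYL2 at 10.94 in RFH 2 lie far to the right of the other 5 arrays, while markers at the bottom of the plot hardly separate.

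One zinc finger gene stood apart in the same array in another way. ZKSCAN5, a transcription factor gene, measured 8.18, 11.27 and 8.39 in RFH 1, 2 and 3 and 10.62, 10.90 and 10.74 in WT 1, 2 and 3. RFH 1 and RFH 3 lay far below the WT arrays while RFH 2 lay above them. The group difference of -1.47 ± 0.72 (SE) therefore did not pass (limma, adjusted p = 0.281), and it was -2.47 without RFH 2. The gene was picked for its excess in RFH 2 over RFH 1 and RFH 3, so the value without that array is a description only.

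Across all 23999 probe sets that are not array controls, 872 differed between juvenile RFH and WT leaflets at an adjusted p under 0.05, which is 3.63%. Here and below the test is limma with Benjamini-Hochberg adjustment over all 23999 probe sets, differences are RFH minus WT in log2 units with limma's SE, and rose or fell is written only of what passed it. Of the 872, 455 were higher in RFH (1.90%) and 417 lower (1.74%). Most were modest: the median size was 0.58, and 112 reached a 2-fold change, of which 46 were rises (0.192%) and 66 falls (0.275%), together 0.467%. Without adjustment 5332 (22.2%) had a p under 0.05, and the groups did not overlap in 6885 probe sets (28.7%).

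**Figure D2:**
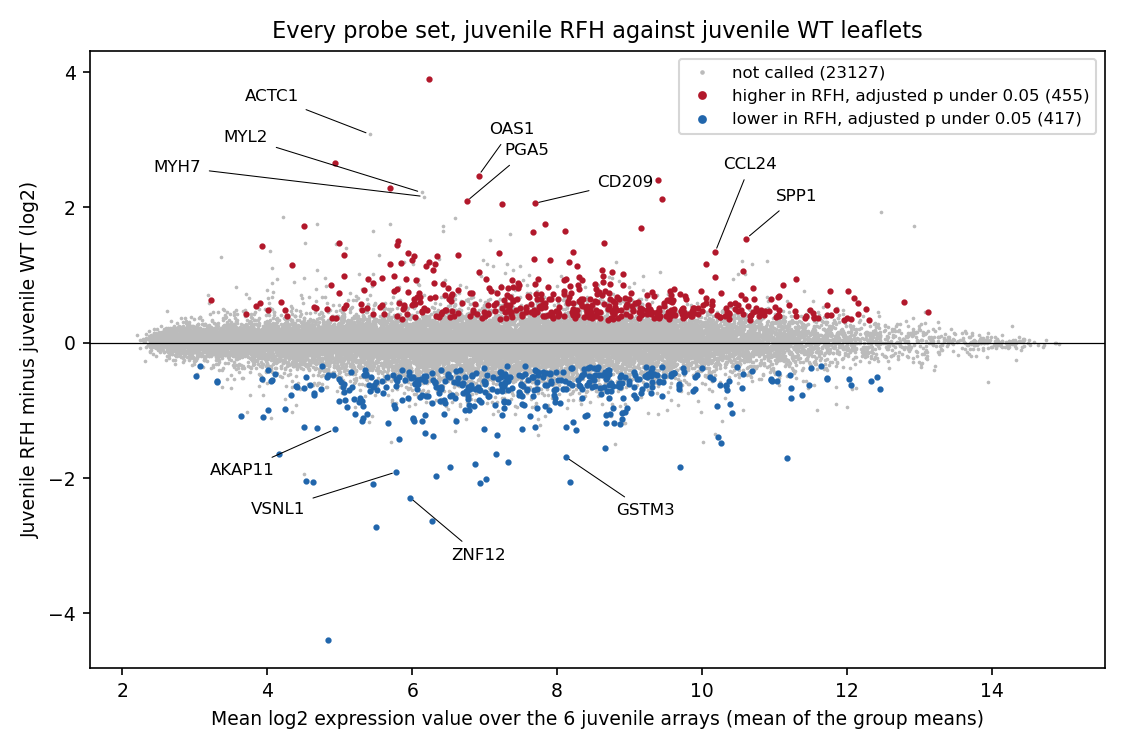
Difference between the group means (juvenile RFH minus juvenile WT, log2) of each of 23999 probe sets against its mean log2 value over the 6 arrays. The 455 probe sets called higher are red and the 417 called lower are blue, and the cardiac genes ACTC1, MYL2 and MYH7 lie high but are grey, as they did not pass.

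The number of calls depended strongly on single arrays and on the fit. It was 1231 without RFH 1, 414 (1.73%) without RFH 2, 90 without RFH 3, 46 without WT 1, 35 without WT 2 and 141 without WT 3. All 872 kept their direction without RFH 2, and 328 of them remained called. A fit that also held the 4 adult arrays called 28. With the cardiac marker mean as a covariate it called 179. The 2 groups also differed in the array's own controls. The spiked poly-A controls averaged 6.44 ± 0.02 (SD, n = 3) in RFH and 6.72 ± 0.08 (SD, n = 3) in WT arrays. The difference of -0.28 had a two-sided exact permutation p of 0.1, the smallest that 3 against 3 arrays allow. The 3' minus 5' difference of the EF1A control, which grows as RNA breaks down, was 1.21, 1.68 and 1.70 in RFH and 1.12, 0.97 and 0.89 in WT arrays (difference 0.54, exact permutation p = 0.1). Averaged over actin, GAPDH and EF1A it differed by 0.16 (exact permutation p = 0.2). The part of these controls in the calls was not tested. No batch, date or scan is given for the arrays, so a batch that went with the groups cannot be told apart from them.

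A gene was read by its brightest probe set with exactly 1 symbol, which gave 6765 genes. Of these, 325 differed (4.80%), 244 higher in RFH (3.61%) and 81 lower (1.20%). The median difference over all genes was 0.07 and 4431 of 6765 (65.5%) were positive, and the groups did not overlap in 2424 (35.8%), so a list is read below against those values. Named and unnamed probe sets split differently: of the called probe sets with 1 symbol 297 were higher and 147 lower, and of those with no symbol 147 were higher and 266 lower.

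The largest rises among named genes were those of the antiviral enzyme gene OAS1, the pepsinogen gene PGA5 and the lectin gene CD209. OAS1, an interferon-induced enzyme that senses double-stranded RNA, measured 8.40, 8.02 and 8.03 in RFH 1, 2 and 3 and 5.18, 6.08 and 5.79 in WT 1, 2 and 3. All 3 RFH arrays lay about 2 log2 units or more above the highest WT array. It rose by 2.47 ± 0.22, a 5.54-fold change (adjusted p = 0.00667). Adult RFH leaflets held it at 8.45 ± 0.37 (SD, n = 4).

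CCL24, a chemokine that attracts eosinophils, measured 10.69, 10.78 and 11.09 in RFH and 9.48, 9.50 and 9.56 in WT arrays. The WT arrays lay within 0.1 of each other and well below the RFH arrays. It rose by 1.34 ± 0.11, or 2.53-fold (adjusted p = 0.00453). CLEC3B, which encodes the plasminogen-binding protein tetranectin, measured 10.67, 10.60 and 10.65 against 9.35, 9.51 and 9.59. It rose by 1.16 ± 0.09 (adjusted p = 0.00284), and its RFH arrays hardly differed from each other. PGA5, a pepsinogen known from the stomach, measured 7.54, 8.13 and 7.71 against 5.61, 5.77 and 5.75 and rose by 2.09 ± 0.15 (adjusted p = 0.00284). Its level in adult RFH leaflets was 8.93 ± 0.43 (SD, n = 4).

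Osteopontin and complement receptor genes followed. SPP1, the gene of the mineral-binding protein osteopontin, measured 10.96, 11.05 and 12.13 in RFH and 9.97, 9.72 and 9.82 in WT arrays. The groups did not overlap, and RFH 3 was about 1 log2 unit above the other 2 RFH arrays. SPP1 rose by 1.54 ± 0.28, or 2.91-fold (adjusted p = 0.0362), and it measured 12.66 ± 0.77 (SD, n = 4) in adults. CR1, a receptor for complement-coated particles, measured 9.58, 9.92 and 10.50 against 8.05, 8.07 and 8.81 and rose by 1.69 ± 0.27 (adjusted p = 0.0277). CD209, a lectin of macrophages and dendritic cells, averaged 8.72 ± 0.69 (SD, n = 3) in RFH and 6.66 ± 0.60 (SD, n = 3) in WT arrays. Both groups were spread over more than 1 log2 unit, and it rose by 2.06 ± 0.39 (adjusted p = 0.038). The SPP1 call was lost without any 1 of the WT arrays, the CR1 call without RFH 3, WT 1 or WT 2, and CD209 passed only with RFH 2 left out.

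Among the other large rises were MT1A, HEBP2, SERPINA1 and S100A4. MT1A, a metallothionein that binds zinc and copper, measured 8.45, 8.71 and 8.29 against 6.34, 6.80 and 7.43 and rose by 1.63 ± 0.25 (adjusted p = 0.0255). Its WT arrays spanned about 1 log2 unit, and the call was lost without RFH 3, WT 1 or WT 2. HEBP2, which encodes a heme-binding protein, rose by 1.48 ± 0.21 (adjusted p = 0.0209). SERPINA1, the antitrypsin gene, rose by 1.20 ± 0.17 (adjusted p = 0.0208), and the calcium-binding S100A4 by 1.19 ± 0.13 (adjusted p = 0.0136). The remaining rises were GKN3, a gastrokine gene (2.05 ± 0.43), AKR1CL1, of the aldo-keto reductase family (1.32 ± 0.12), GJA5, a gap junction gene of arterial endothelium and atrial muscle (1.22 ± 0.23), and PERP, a desmosome-associated gene (1.17 ± 0.23). AKR1CL1 has 2 other probe sets, which differed by -0.18 and 0.39 and did not pass.

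The largest falls among named genes were mostly of low or middling signal. ZNF12, a zinc finger transcription factor gene, measured 4.53, 5.27 and 4.69 in RFH 1, 2 and 3 and 7.17, 7.40 and 6.77 in WT 1, 2 and 3. The groups were about 1.5 log2 units apart at their nearest. It fell by 2.29 ± 0.22, and WT was 4.88-fold higher (adjusted p = 0.0085). AKAP11, which anchors protein kinase A, measured 4.21, 4.36 and 4.32 against 5.45, 5.57 and 5.70. All 6 values lay in the low part of the array's range, and it fell by 1.28 ± 0.09 (adjusted p = 0.00284).

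GSTM3, a glutathione transferase gene, measured 7.22, 7.41 and 7.19 in RFH and 8.62, 9.42 and 8.86 in WT arrays. It fell by 1.69 ± 0.19 (adjusted p = 0.014), a call lost only without RFH 3. Adult RFH leaflets held it at 8.58 ± 0.54 (SD, n = 4). The glucocorticoid receptor gene NR3C1 measured 8.05, 7.43 and 7.44 against 8.79, 8.80 and 8.83. Its WT arrays agreed within 0.1, and it fell by 1.17 ± 0.16 (adjusted p = 0.0204), a call lost without RFH 3 or any 1 WT array. A second NR3C1 probe set fell by 0.62 ± 0.10 (adjusted p = 0.0278), and its 2 dimmer ones differed by -0.09 and -0.16 and did not pass.

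VSNL1, a calcium sensor gene of neurons, fell by 1.91 ± 0.36 (adjusted p = 0.0371), and KLF11, a transcriptional repressor gene induced by TGF-beta, fell by 1.37 ± 0.28 (adjusted p = 0.0454). The second KLF11 probe set differed by -0.94 and did not pass (adjusted p = 0.0858). Genes of the nuclear envelope, SYNE1 (-1.24 ± 0.16) and TMEM43 (-1.13 ± 0.13), were also among the 15 largest falls. So were the collagen-binding integrin gene ITGA2 (-1.15 ± 0.15), the opioid precursor PDYN (-1.07 ± 0.20), the retinoic acid carrier CRABP2 (-1.07 ± 0.22) and the glutamate transporter SLC1A2 (-1.05 ± 0.18). The other TMEM43 probe sets differed by 0.07 (adjusted p = 0.816) and -0.19 (adjusted p = 0.365), and the second, dimmer ITGA2 probe set by 0.02 (adjusted p = 0.937). PDZK1, a scaffold known to hold the HDL receptor at the liver cell surface, fell by 0.96 ± 0.10 (adjusted p = 0.00994), while its other probe set differed by -0.35 and did not pass. The last 2 were the long noncoding RNA LOC100523870 (-1.48 ± 0.30) and LOC100739425 (-0.96 ± 0.15).

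**Figure D3:**
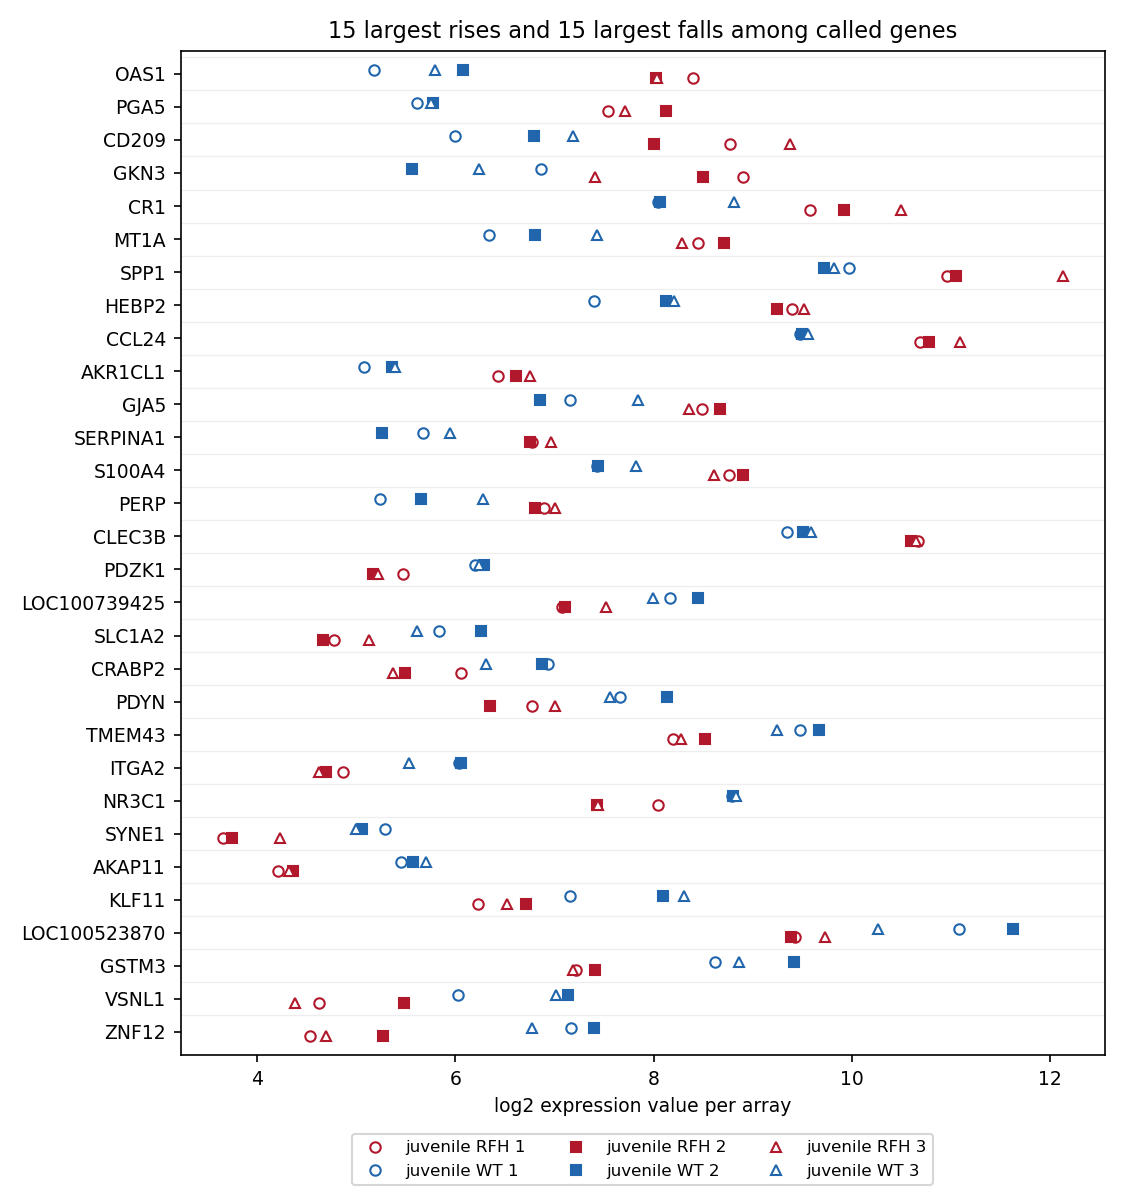
log2 expression value in each of the 6 juvenile arrays for the 15 genes with the largest rises (top) and the 15 with the largest falls (bottom) among called genes whose groups do not overlap. Red marks juvenile RFH, blue juvenile WT and the shape the array number. OAS1, PGA5 and ZNF12 show the widest gaps between the groups, while GKN3 and LOC100523870 have WT arrays spread over more than 1 log2 unit.

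These 30 genes did not rest equally on all arrays. Without RFH 1, 2 or 3 in turn, 21, 21 and 12 of the 30 passed, and without WT 1, 2 or 3 it was 10, 8 and 20. Over all 325 called genes the same counts were 249, 110 and 30, and 14, 9 and 44. Those that passed whichever array was left out were 8: OAS1, PGA5, CCL24, AKR1CL1 and CLEC3B among the rises, and ZNF12, AKAP11 and AQP3 among the falls. AQP3, a water and glycerol channel gene that was chosen after its values were seen, measured 9.69, 9.74 and 9.76 in RFH and 10.72, 10.65 and 10.62 in WT arrays. Each group spanned about 0.1 or less, and it fell by 0.94 ± 0.07 (adjusted p = 0.00324). Calls of GKN3, PDYN and SLC1A2 passed in none of the 6 fits with an array left out.

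Probe sets that the annotation gives no gene name held the widest differences among called probe sets, and those described here were chosen after their values were seen. The one with the largest fall measured 2.57, 2.63 and 2.72 in RFH and 7.06, 7.14 and 6.88 in WT arrays. It fell by 4.39 ± 0.09 (adjusted p = 2.25e-06). Its RFH values lay near 2.01, the lowest value of the 6 arrays, and were not shown to be above background, so the fall may be larger than this value and its size has no exact reading. In adult RFH leaflets it measured 3.46 ± 1.41 (SD, n = 4). The one with the largest rise did so by 3.90 ± 0.51 (adjusted p = 0.0183), with WT 1 at 3.03 well below the other WT arrays at 5.01 and 4.78. Its adult level was 6.76 ± 2.29 (SD, n = 4). Counting unnamed ones and dimmer probe sets of named genes, 24 probe sets passed whichever array was left out. These include a dimmer FAM84A probe set that rose by 1.72 ± 0.11 (adjusted p = 0.00198). The brightest FAM84A probe set differed by 0.31 and did not pass (adjusted p = 0.117).

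Interferon response genes were the list with the highest median difference. All 25 measured members were positive, with a median of 0.58 against 0.07 over all genes, but only OAS1 passed the test with all 6 arrays. In 11 of the 25 genes the groups did not overlap, where 35.8% of all genes did not. The list mean was 9.08, 8.53 and 9.27 in RFH 1, 2 and 3 and 8.20, 8.26 and 8.52 in WT 1, 2 and 3. RFH 2 lay level with WT 3 in this mean, and the other 2 RFH arrays lay above every WT array.

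Without RFH 2, 12 members rose (12 of 25, where 1.55% of all genes rose in that fit) and the median was 0.74. In RFH 1 and RFH 3 together, 22 of 25 members lay above all 3 WT arrays. How often all genes do so was not counted, so this number has no background to be read against. With RFH 1, RFH 3, WT 1, WT 2 or WT 3 left out instead, OAS1 alone passed in each fit. The genes that follow were chosen after their values were seen. ISG15, a ubiquitin-like protein attached to others during antiviral defence, measured 11.37, 10.44 and 11.67 in RFH arrays and averaged 9.95 ± 0.38 (SD, n = 3) in WT arrays. Its difference was 1.21 ± 0.32 with all arrays (adjusted p = 0.0797) and 1.57 without RFH 2 (adjusted p = 0.0286).

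MX1, a GTPase that blocks viral replication, measured 11.61, 10.60 and 11.52 against 10.42, 10.50 and 10.75. RFH 2 lay inside the WT range, and the difference of 0.68 ± 0.25 did not pass (adjusted p = 0.169). Without RFH 2 it was 1.01 (adjusted p = 0.0206). USP18, which removes ISG15 from proteins, measured 9.58, 8.39 and 9.40 against 8.45, 8.24 and 8.51, and differed by 0.72 with all arrays and by 1.09 without RFH 2 (adjusted p = 0.0152). The RNA sensors DDX58 and DDX60, the antiviral genes IFIT3, RSAD2, XAF1, PARP9 and EIF2AK2 and the transcription factor IRF7 also passed without RFH 2. The kinase gene EIF2AK2 measured 9.57 in RFH 2, below all 3 WT arrays at 9.93 to 9.98. Adult RFH leaflets averaged 8.71 ± 0.20 (SD, n = 4) over the list, between the juvenile RFH arrays.

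**Figure D4:**
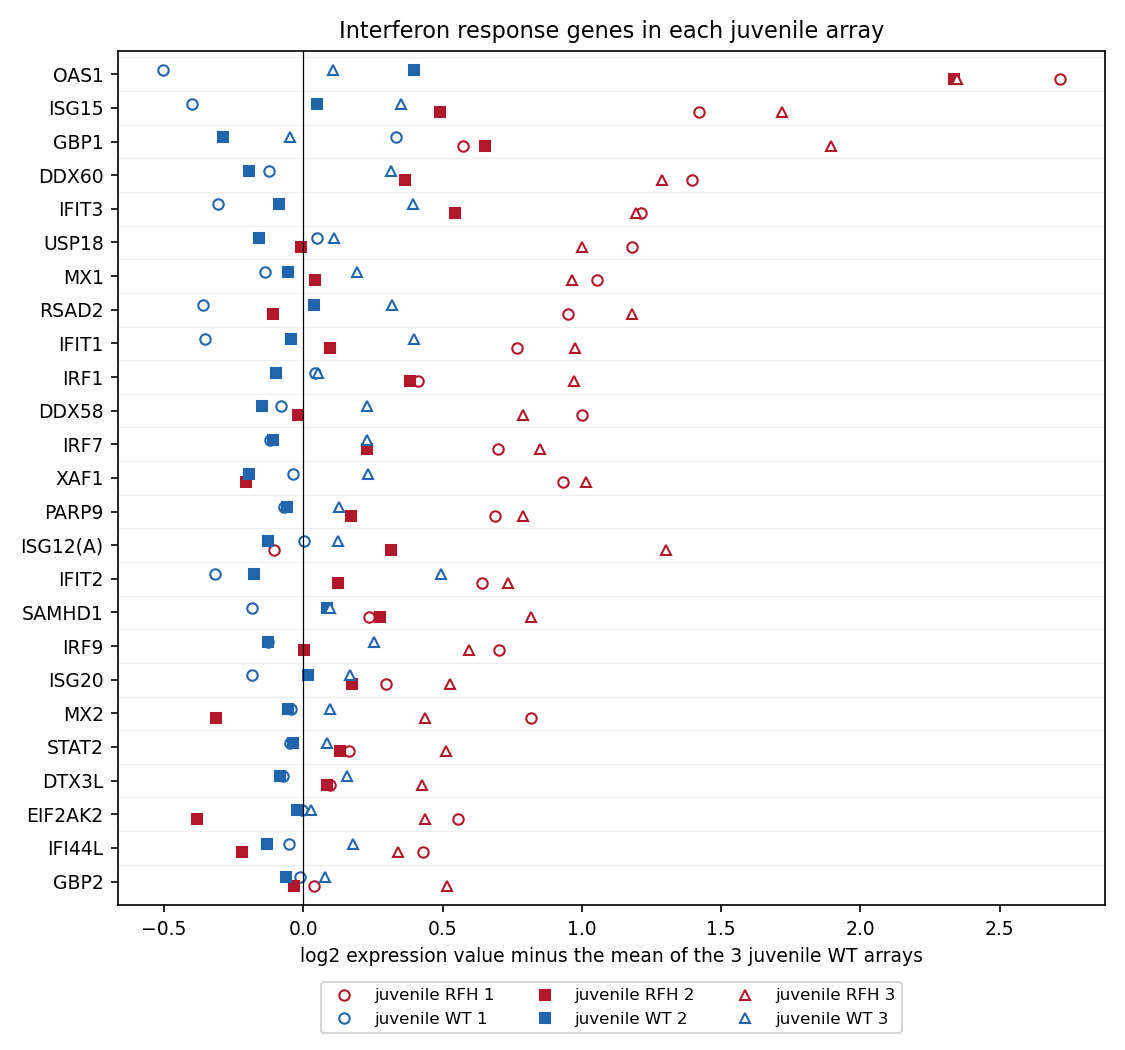
log2 expression value of 25 interferon response genes in each juvenile array, minus the mean of the 3 WT arrays (vertical line at 0). Juvenile RFH is red and juvenile WT blue, and filled squares mark the arrays numbered 2. All 3 RFH arrays lie above all WT arrays in 11 of the 25 genes, OAS1 among them. RFH 1 and RFH 3 both do so in 22, a count without a matching share of all genes.

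Antigen presentation genes held the second highest list median. Of 22 measured members 4 rose and none fell, 20 were positive, and the median was 0.40, or 0.37 without RFH 2. The class II chains SLA-DRA and SLA-DRB1, which show peptides to helper T cells, rose by 0.85 ± 0.15 (adjusted p = 0.0297) and 0.94 ± 0.15 (adjusted p = 0.0268). SLA-DRA measured 11.25, 11.59 and 11.76 in RFH and 10.87, 10.56 and 10.63 in WT arrays, without overlap. The immunoproteasome subunit PSMB8 measured 9.18, 9.18 and 9.66 against 8.61, 8.28 and 8.57 and rose by 0.85 ± 0.15 (adjusted p = 0.034). The fourth was the proteasome activator PSME2 (0.66 ± 0.13, adjusted p = 0.0394), named after its values were seen.

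The other class II genes of the list did not pass. SLA-DQA1 differed by 0.41, SLA-DQB1 by 0.47, SLA-DMA by 0.40, SLA-DMB by 0.29 and SLA-DOA by 0.25. Class I genes did not pass either: SLA-2 differed by 0.25, SLA-3 by -0.26 and B2M, their shared light chain, by 0.25. Without RFH 1, 2 or 3, 7, 1 and 0 members passed, and with any 1 WT array left out 0 passed, with list medians from 0.29 upward in all 6 fits. SLA-DRB1 is polymorphic and shares probes with a neighbouring locus. A pair of probe sets assigned to both SLA-DRB1 and LOC106504372 was called in opposite directions, 2.41 ± 0.26 and -1.25 ± 0.18 (adjusted p = 0.0135 and 0.0218), so a level from this family is uncertain.

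Macrophage markers rose in 4 of 16 measured members, and none fell. C1QA, a chain of the complement starter C1q made by tissue macrophages, measured 11.15, 11.04 and 11.12 in RFH and 10.45, 10.11 and 10.33 in WT arrays. It rose by 0.81 ± 0.10 (adjusted p = 0.0174), with both groups tight and apart. C1QC (0.59 ± 0.10, adjusted p = 0.0282), the macrophage gene AIF1 (0.62 ± 0.10, adjusted p = 0.0282) and the leukocyte integrin ITGB2 (0.55 ± 0.09, adjusted p = 0.0277) rose as well. The scavenger receptor CD163 was higher in RFH by 0.53 ± 0.13 but did not pass (adjusted p = 0.0678), and a second, dimmer CD163 probe set differed by -0.53 ± 0.34 (adjusted p = 0.402).

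The list's median was 0.30, with 14 of 16 positive. With RFH 1, 2 or 3 left out, 6, 1 and 0 members passed, and without WT 1, 2 or 3, it was 2, 0 and 0. The mannose receptor MRC1 differed by 0.02 and the pan-leukocyte gene PTPRC by 0.09, and neither passed. LAPTM5 (-0.25, adjusted p = 0.296) and ITGAM (-0.23, adjusted p = 0.295) went the other way and did not pass. In a whole leaflet, more macrophages and more RNA per macrophage cannot be told apart. Of the lymphocyte markers 0 of 15 passed, with a median of 0.10. KIT, a mast cell receptor, rose by 0.59 ± 0.12 (adjusted p = 0.0414) and was the only one of 6 neutrophil and mast cell markers to pass. Its call was lost in each of the 6 fits with an array left out. MS4A2, another mast cell gene of the list, went the other way and did not pass (-0.76 ± 0.27, adjusted p = 0.149).

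Inflammatory cytokines and chemokines rose in 6 of 26 measured members and fell in none, with a median of 0.25. CCL5, which attracts T cells and monocytes, measured 7.59, 7.82 and 8.09 in RFH and 6.80, 6.83 and 7.08 in WT arrays. It rose by 0.93 ± 0.14 (adjusted p = 0.0237), without overlap. CCL4, a related chemokine, rose by 0.68 ± 0.13 (adjusted p = 0.0386) and the lymphocyte growth factor IL15 by 0.53 ± 0.08 (adjusted p = 0.0267). CXCL8, which attracts neutrophils, measured 5.02, 5.35 and 5.70 against 4.65, 4.63 and 4.58, and passed narrowly (0.74 ± 0.16, adjusted p = 0.0499). The other 2 were CCL19 (0.67) and IL1B (0.45), named after their values were seen.

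IL6 measured 4.76, 5.41 and 5.11 against 4.55, 4.61 and 4.10, a low level in all 6 arrays, and did not pass (0.68 ± 0.19, adjusted p = 0.0939). The widest mean difference of the list was in CXCL9, an interferon-induced chemokine, with 6.92, 7.89 and 8.69 in RFH and 6.76, 5.67 and 6.50 in WT arrays (1.52 ± 0.45, adjusted p = 0.102). CCL2 differed by 0.03 ± 0.18 and TNF by 0.07. Leaving out RFH 1, 2 or 3, 6, 2 and 0 members passed, and with any 1 WT array left out 0 did.

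In the endothelial lists the adhesion molecule VCAM1 and the co-receptor ENG rose. VCAM1, the adhesion molecule that holds monocytes to activated endothelium, measured 13.08, 13.08 and 13.09 in RFH and 12.54, 12.45 and 12.48 in WT arrays. The RFH arrays were nearly identical, and VCAM1 rose by 0.60 ± 0.07, or 1.51-fold (adjusted p = 0.0157). It was the only one of 21 endothelial activation and flow response genes to pass. ICAM1, its partner in leukocyte adhesion, measured 9.52, 9.72 and 10.03 against 9.27, 9.23 and 9.20 (0.53 ± 0.13, adjusted p = 0.0643). E-selectin (SELE) lay between 4.02 and 4.56 in all 6 arrays and differed by 0.10 ± 0.14.

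Leaving out RFH 1, 2 or 3, 2, 2 and 0 of the 21 passed, and with any 1 WT array left out 0 did. Endothelin (EDN1), a vasoconstrictor chosen here after its values were seen, passed without RFH 2 (1.16, adjusted p = 0.0453) and not with all arrays (0.96 ± 0.23, adjusted p = 0.0601). Among 15 endothelial cell markers the TGF-beta co-receptor ENG rose by 0.51 ± 0.08 (adjusted p = 0.0237), and the list's median was 0.28, or 0.18 without RFH 2. WT 1 had the lowest endothelial mean of the 6 arrays, at 8.33. Which cells of the whole leaflet held VCAM1 was not measured, and the part of the endothelial share in its difference was not tested. NOS3 (0.29 ± 0.17) and the flow-induced KLF2 (-0.04 ± 0.10) did not pass.

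Genes of cholesterol handling gave few calls. Sterol synthesis genes, which cells turn down when cholesterol is ample, had 0 of 15 members called and a median of 0.19. FDPS, an enzyme of the isoprenoid branch point, came nearest, at 8.49, 8.54 and 8.14 in RFH and 7.77, 7.57 and 7.95 in WT arrays (0.63 ± 0.14, adjusted p = 0.0524). HMGCS1 (0.12 ± 0.09), SQLE (0.22 ± 0.11) and INSIG1 (0.25 ± 0.10) did not pass. At an adjusted p under 0.05, 1 member passed without RFH 1 and 0 in the other 5 fits with an array left out.

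Of 12 genes of cholesterol efflux and LXR, the nuclear receptor that senses oxysterols, all were positive, with a median of 0.18. LPCAT3, an LXR target that remodels phospholipids, measured 8.50, 8.44 and 8.41 against 7.67, 7.69 and 7.83. Both groups were tight, and it rose by 0.72 ± 0.08 (adjusted p = 0.0136). Leaving out WT 1 or WT 2 ended this call, and a dimmer LPCAT3 probe set differed by 0.24 and did not pass. ABCA1, the main cholesterol exporter of macrophages, differed by 0.16 ± 0.14 and APOE by 0.31 ± 0.13, and neither passed. The lipoprotein receptor VLDLR was higher by 0.41 ± 0.09 (adjusted p = 0.0512). APOB measured 3.06 to 3.28 in all 6 arrays, near the bottom of the array's range.

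Of 29 fatty acid genes 1 rose and 1 fell, 3.4% each, where 3.61% of all genes rose and 1.20% fell. The list's median was 0.09, against 0.07 over all genes. SCD, which desaturates fatty acids, measured 10.16, 10.13 and 9.73 in RFH and 9.23, 9.20 and 9.21 in WT arrays and rose by 0.79 ± 0.12 (adjusted p = 0.0239). Its WT arrays agreed closely and RFH 3 was the lowest RFH array. ACADL, a mitochondrial fatty acid dehydrogenase gene, fell by 0.49 ± 0.09 (adjusted p = 0.0314). The other 27 of 29 members did not pass. The SCD call was lost without any 1 WT array, and of the fits with an array left out ACADL passed only in that without RFH 1.

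Among matrix genes LOX rose, and few others passed. LOX, the enzyme that crosslinks collagen and elastin, measured 11.09, 10.96 and 11.22 in RFH and 10.14, 10.21 and 9.76 in WT arrays. The groups did not overlap, and LOX rose by 1.06 ± 0.13, or 2.08-fold (adjusted p = 0.0174). Leaving out RFH 3, WT 1 or WT 2 ended this call. Adult RFH leaflets held it at 9.23 ± 0.23 (SD, n = 4), a mean below each of the 6 juvenile arrays. A second, dim LOX probe set differed by 0.18 and did not pass. The related gene LOXL1 was higher by 0.61 ± 0.16 and did not pass (adjusted p = 0.0799).

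Of 16 collagen and collagen processing genes 0 passed, and the median was -0.09. The fibrillar chain COL1A2 measured 9.17, 8.85 and 8.68 in RFH and 9.53, 9.33 and 9.39 in WT arrays, lower without overlap but not called (-0.52 ± 0.13, adjusted p = 0.0737). COL8A1 (-0.62 ± 0.14, adjusted p = 0.0587) and COL3A1 (0.01 ± 0.08) did not pass either. Without RFH 1, 3 of the 16 fell, and 0 were called in the other 5 fits with an array left out. Of 16 proteoglycan and hyaluronan genes the hyaluronidase HYAL1 rose by 0.38 ± 0.07 (adjusted p = 0.0393, passing only without RFH 1 once an array was left out), and of 23 proteases and inhibitors 0 passed. Periostin (POSTN) was bright and level by its main probe set (-0.11 ± 0.09), whereas a dimmer one, noted after its values were seen, fell by 1.64 ± 0.29 (adjusted p = 0.0336).

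Osteogenic and mineralisation genes had 2 of 12 members called, both up. These were SPP1, given above, and ENPP1, which makes the mineralisation inhibitor pyrophosphate. ENPP1 measured 10.90, 10.75 and 11.07 in RFH and 10.07, 10.36 and 10.36 in WT arrays and rose by 0.65 ± 0.12 (adjusted p = 0.0357). The mineralisation inhibitor MGP was among the brightest genes, at 14.71 to 14.79 in all 6 arrays, and differed by 0.04 ± 0.07. Alkaline phosphatase (ALPL) stayed between 4.16 and 4.47 and bone sialoprotein (IBSP) differed by 0.12 ± 0.10.

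The osteoblast transcription factor DLX5, named after its values were seen, measured 5.20, 3.95 and 5.30 against 6.16, 5.90 and 5.88. It was lower in every RFH array, with a difference of -1.17 ± 0.33 over all arrays (adjusted p = 0.0925), and passed without RFH 2 at -0.73 (adjusted p = 0.0352). Without RFH 1, 2 or 3, 1, 2 and 1 members of the list rose, and with any 1 WT array left out 0 did. SOX9, the master regulator of cartilage, measured 7.06, 6.95 and 6.71 against 7.29, 7.35 and 7.43 (-0.45 ± 0.11, adjusted p = 0.0605), and 0 of 10 chondrogenic genes passed. RUNX2 and BMP2 were not analysed here.

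Signalling lists gave single calls. The insulin-like growth factor carrier IGFBP2 measured 8.54, 9.03 and 8.79 in RFH and 7.58, 7.80 and 8.06 in WT arrays and rose by 0.97 ± 0.16 (adjusted p = 0.0277). Leaving out RFH 3 or any 1 WT array ended this call. TCF7L2, a transcription factor of Wnt signalling, fell by 0.46 ± 0.10 (adjusted p = 0.0475), the only one of 12 Wnt genes to pass, and it passed in none of the fits with an array left out. In the TGF-beta and BMP list ENG alone passed, TGFB1 differed by -0.07 ± 0.14 and BMP4 by 0.36 ± 0.15. None of 6 Notch genes passed, HES1 coming nearest (-0.60 ± 0.16, adjusted p = 0.0813).

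Immediate early genes, which cells switch on within minutes of a stimulus, and clock genes had the lowest list medians. Of 23 immediate early genes 2 fell and none rose, with a median of -0.20. The AP-1 subunit JUN measured 10.99, 10.88 and 11.09 in RFH and 11.99, 11.72 and 11.56 in WT arrays and fell by 0.77 ± 0.12 (adjusted p = 0.0259). KLF10, a TGF-beta-induced repressor, measured 10.14, 10.01 and 9.86 against 10.55, 10.81 and 10.75 and fell by 0.70 ± 0.11 (adjusted p = 0.0237). Both were lower in every RFH array. FOS (-0.18 ± 0.16) did not pass and neither did MYC (-0.68 ± 0.16, adjusted p = 0.0644).

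EGR1 differed by probe set: its brightest differed by -0.31 ± 0.23 and another by 0.33 ± 0.18, while one of lower signal, noted after its values were seen, fell by 1.20 ± 0.20 (adjusted p = 0.0282). With RFH 1, 2 or 3 left out, 2, 1 and 0 of the immediate early genes fell, and without WT 1, 2 or 3, it was 0, 0 and 1. The median was -0.08 without RFH 2, where that of all genes was 0.06.

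Of 10 circadian clock and temperature-responsive genes 3 fell and none rose, with a median of -0.32 and 8 of 10 negative. RBM3, an RNA-binding protein induced by mild cold, measured 10.94, 10.81 and 10.67 in RFH and 11.71, 11.70 and 11.48 in WT arrays. The groups lay more than 0.5 apart, and it fell by 0.82 ± 0.10 (adjusted p = 0.0174). The clock repressor BHLHE40 measured 6.11, 5.72 and 5.57 against 6.41, 6.70 and 6.66 and fell by 0.79 ± 0.15 (adjusted p = 0.0382), while a dimmer probe set differed by -0.02. The nuclear receptor RORA, which drives ARNTL, fell by 0.47 ± 0.08 (adjusted p = 0.0298). ARNTL itself measured 9.26, 9.49 and 9.62 against 8.27, 9.07 and 9.32, overlapping, and did not pass (0.57 ± 0.25, adjusted p = 0.232). Leaving out RFH 1, 2 or 3, 4, 1 and 0 of the list fell, and without WT 1, 2 or 3, it was 0, 0 and 1. The hour of death is not given for the animals, and its part was not tested.

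In the unfolded protein response list 3 of 18 rose. SDF2L1, an endoplasmic reticulum protein induced by misfolding, measured 7.22, 7.17 and 7.21 against 6.40, 6.41 and 6.56 and rose by 0.74 ± 0.08 (adjusted p = 0.0123). Leaving out WT 1 or WT 2 ended the SDF2L1 call. CRELD2 (0.51 ± 0.11, adjusted p = 0.0485) and the chaperone HYOU1 (0.43 ± 0.08, adjusted p = 0.0386) rose as well, but both calls were lost in each fit with an array left out. The central chaperone HSPA5 differed by 0.18 and DDIT3, a marker of prolonged stress, by -0.35, and neither passed.

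Antioxidant genes had 3 of 26 up, MT1A, PRDX1 (0.37 ± 0.08, adjusted p = 0.0447) and PRDX4 (0.34 ± 0.07, adjusted p = 0.048), and 1 down, GSTM3. Leaving out RFH 1, 2 or 3, 3, 2 and 0 rose, and without WT 1, 2 or 3, it was 0, 0 and 1. Among 18 heat shock genes the co-chaperone DNAJB1 alone passed, falling by 0.36 ± 0.07 (adjusted p = 0.0414), a call lost in each fit with an array left out.

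Oxidative phosphorylation genes were positive in 31 of 32 members, with a median of 0.21, and 3 rose. The ATP synthase subunit ATP5G1 rose by 0.48 ± 0.09 (adjusted p = 0.0348), the cytochrome oxidase subunit COX5B by 0.41 ± 0.09 (adjusted p = 0.0485) and NDUFA4 by 0.34 ± 0.07 (adjusted p = 0.0499). The list mean was 10.65, 10.75 and 10.67 in RFH 1, 2 and 3 and 10.43, 10.47 and 10.49 in WT 1, 2 and 3. The groups did not overlap in this mean, nor in the means of several other lists, such as antioxidant genes. The oxidative phosphorylation mean was highest in RFH 2, the array with heart muscle transcripts, and the median was 0.18 without that array. Only 1 member passed without RFH 1 and 0 in the other 5 fits with an array left out.

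Cytosolic ribosomal protein genes (0 of 56 called, median 0.01) and cell cycle genes (0 of 33 called, median -0.04) gave no calls in any fit with 1 array left out. A dimmer probe set of the ribosomal gene RPL23, noted after its values were seen, rose by 1.14 (adjusted p = 0.0157). The brightest RPL23 probe set differed by 0.15 and another by 0.09, and neither passed. The cell cycle mean was 7.55, 7.95 and 7.49 in RFH and 7.90, 7.61 and 7.62 in WT arrays, so RFH 2 and WT 1 were high within their groups. Without RFH 2 the cell cycle median was -0.19 and 6 of 33 members were positive, where the median of all genes was 0.06.

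Red cell genes gave a mixed picture. AHSP, which stabilises alpha globin in red cell precursors, measured 6.28, 7.06 and 5.53 in RFH and 4.41, 4.39 and 5.14 in WT arrays. ALAS2, the first enzyme of heme synthesis in those cells, measured 8.34, 8.77 and 7.32 against 6.07, 6.38 and 7.17. Neither overlapped and neither passed (1.65 ± 0.37, adjusted p = 0.0551, and 1.61 ± 0.39, adjusted p = 0.0664). Beta globin (HBB) measured 9.51, 9.61 and 9.82 against 10.01, 9.88 and 9.71, overlapping (-0.22 ± 0.11, adjusted p = 0.3).

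**Figure D5:**
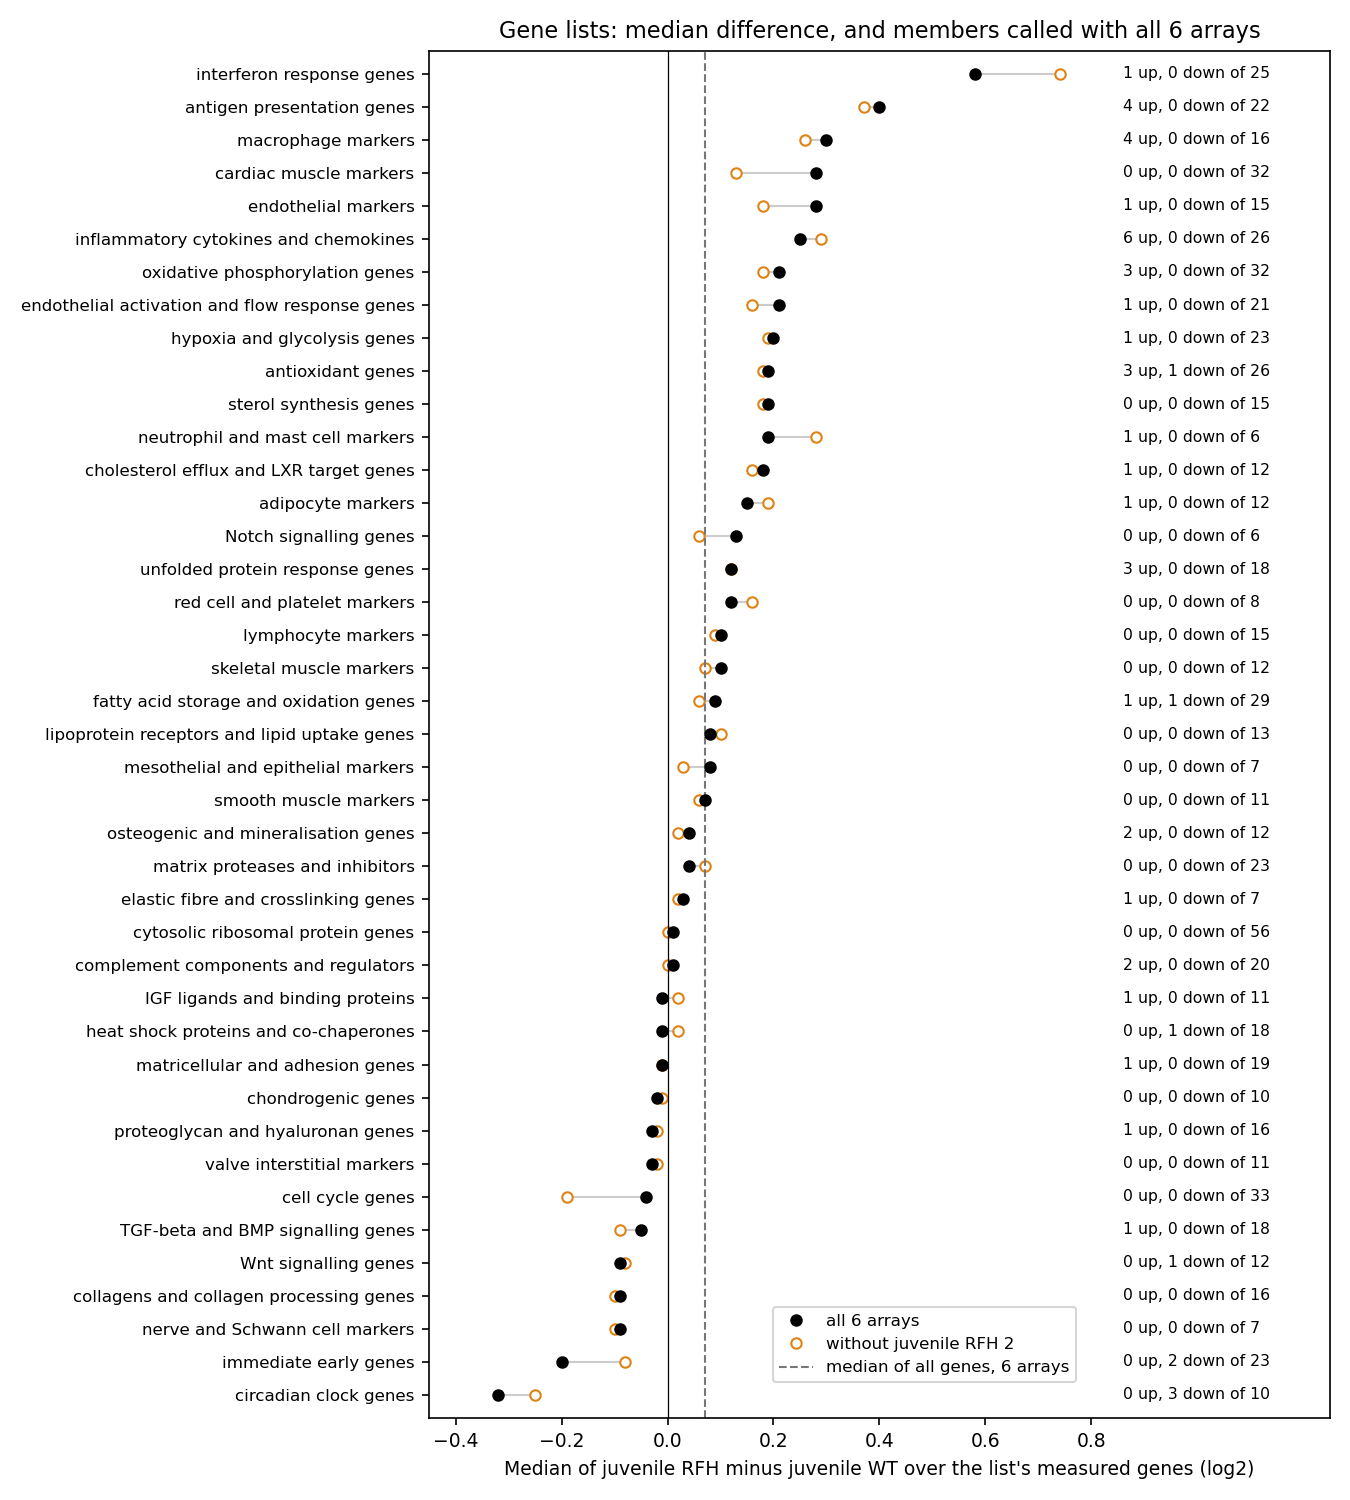
Median of juvenile RFH minus juvenile WT (log2) over the measured genes of each of 41 lists, with all 6 arrays (black) and without RFH 2 (open orange), and at right the members called with all 6 arrays. The dashed line is the median of all genes, 0.07. Interferon genes lie farthest right at 0.58, moving to 0.74 without RFH 2, and clock genes farthest left at -0.32.

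Markers of other cell types that a leaflet sample could hold gave few calls. Of the skeletal muscle (12), smooth muscle (11), nerve and Schwann cell (7), mesothelial and epithelial (7) and red cell and platelet (8) markers 0 passed. Skeletal muscle means lay between 4.63 and 4.83 in all 6 arrays. The pericyte gene RGS5 measured 9.24, 9.83 and 8.86 in RFH and 8.11, 8.41 and 8.69 in WT arrays and did not pass (0.91 ± 0.24, adjusted p = 0.0836). Among 12 adipocyte markers SCD alone rose, among 23 hypoxia and glycolysis genes the glucose transporter SLC2A3 (0.41 ± 0.08, adjusted p = 0.0381), among 20 complement genes C1QA and C1QC, and among 19 matricellular genes SPP1.

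RSF1, a chromatin remodelling subunit, was the only gene whose probe sets with exactly 1 symbol were called in opposite directions, 0.76 ± 0.13 by one and -0.44 ± 0.09 and -0.66 ± 0.10 by the other 2. It was noted after its values were seen, and no direction is given for it.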

How the data were processed

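Per the submitters' processing notes the values were made in R 2.15.2, and the authors deposited them as log2 expression, with the scale read here from their range. How background, normalization and probe summaries were handled is not given in the sources used here. Per the labels' protocols, 400 ng of total RNA per sample was amplified and biotin-labelled by in vitro transcription.

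The 6 juvenile arrays were fitted with limma 3.58.1 in R 4.3.3 (lmFit, eBayes without trend, two-sided, Benjamini-Hochberg over 23999 probe sets, 124 controls left out), with 4 residual degrees of freedom and 3.69 from the prior. The code was tested on simulated data. Controls were compared by exact two-sided permutation. Detection calls were not used, and 3 arrays per group limit the precision. A gene was read by its brightest probe set with a single symbol in the platform annotation (10069 probe sets had 1 symbol, 198 several, 13732 none), and 9961 gene IDs were found in the RefSeq table.

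The comparison, the 41 gene lists and the named anchor genes were chosen with earlier results of these data known. Named genes are the 15 largest rises and falls among called genes with groups apart, the called members of each list with the smallest p (at most 3 in a direction, or 1 uncalled member where none passed), the anchors, and the 10 genes with the largest excess in RFH 2. Every other gene was named after its values were seen. Alternatives were 3 other scalings, a filter on dim probe sets, all 10 arrays, a trended robust prior, weighted arrays, the replicate number as block, a floor, a cardiac covariate, each array left out, other ways to read a gene, and a fold of 2.

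Some genes are not reported here.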

Additional observations from a re-analysis of the deposited data

Results flagged for a closer look

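The 30 genes with the largest rises and falls were read in the 4 adult RFH arrays for a single array far from the others, and 2 stood out, where chance gives about 1 in 20 groups. MT1A measured 8.40 in adult RFH 4, with the nearest of the other adult arrays at 10.78. S100A4 measured 10.78 in adult RFH 1, with the nearest at 9.89. The adult arrays took no part in the juvenile comparison, and the juvenile groups of 3 are too small for this rule.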

How the results depend on the processing

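The 872 calls (455 higher, 417 lower) moved by more than 1.5 times under these settings. With all 10 arrays in the fit there were 28 (12 and 16), with values below 4 raised to 4 435 (288 and 147), with the cardiac covariate 179 (90 and 89) and with an added fold of 2 112 (46 and 66). With 1 probe set per gene, where fewer features were tested, there were 499, 131 of them lower. Leaving out 1 array gave 35 to 1231 calls, 15 to 584 higher and 20 to 647 lower. Apart from the smaller tests, the cause was not tested.

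Whether numbers shared between the groups pair the arrays could not be decided from 3 arrays per group. Residual correlations of same-numbered arrays were 0.19, -0.01 and -0.07, and RFH 1 alone correlated best with its own number. With the replicate number as a block there were 397 calls (176 higher, 221 lower). Quantile, median and loess scaling gave 881, 899 and 836 calls, with 45.9% to 55.8% higher against 52.2%. Of 67 called named genes, 59, 63 and 59 remained called under these scalings, 36 with the replicate block, 25 with the floor, 20 with the cardiac covariate, 9 with all 10 arrays and 8 to 48 with an array left out. None of the 67 changed direction in these fits, whereas named genes that were not called did, such as TNNI3 (1.16, and -0.27 without RFH 2) and TGFB1 (-0.07, and -0.21 to 0.07 with an array left out). Medians of the complement, elastic fibre, matricellular, chondrogenic, heat shock, ribosomal and IGF lists lay within 0.05 of 0 and touched or crossed it under a scaling. No detection calls bound the dim genes.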
